A study of Mus musculus with 16 samples.

Results

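The genes described here are those that the mouse mitochondrial genome itself encodes. They are all the rows that the deposited expression table places on chromosome MT, 37 of 56748 genes. The 37 rows comprise 13 genes for subunits of the respiratory chain and ATP synthase, 2 genes for ribosomal RNAs and 22 genes for transfer RNAs. Their RNA was measured by RNA-seq in 16 libraries of mouse embryos at E11.5. The embryos were either Ednrb+/+, labelled WT, or Ednrb-/-, and from each genotype the trunk region and the caudal region were taken. The 4 groups (WT trunk, WT caudal, Ednrb-/- trunk and Ednrb-/- caudal) held 4 biological replicates each. Ednrb encodes the endothelin B receptor, which neural crest cells that give rise to pigment cells and enteric neurons depend on, and by its title the series is about the microenvironment of pigment cells and the location of spots in mice without this receptor. No source used here gives the strain, the construction of the Ednrb allele or the litters, or says whether a trunk and a caudal sample came from 1 embryo. The p-values therefore measure only the spread between these samples. The samples were whole regions that mix many tissues, so fewer cells of a type and less RNA per cell cannot be told apart in any value below.

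Mitochondrial DNA is a small circle that is copied into long precursor RNAs from both strands. The transfer RNA genes stand between the other genes, and cutting them out releases most of the messenger and ribosomal RNAs, which then receive short poly(A) tails. The messenger RNAs encode core subunits of complexes I, III and IV and of ATP synthase, and the ribosomal RNAs build the mitochondrial ribosome that translates them. All other proteins of these complexes, every subunit of complex II, and the factors that transcribe, cut and stabilise mitochondrial RNA are made from nuclear genes. Over evolution, pieces of mitochondrial DNA have also been copied into nuclear chromosomes, where they are annotated as pseudogenes.

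Ednrb, the label check, lay between 26.2 and 41.8 FPKM in the 8 WT libraries and between 1.59 and 4.80 FPKM in the 8 Ednrb-/- libraries, without overlap. An FPKM value counts fragments relative to the length of a gene and to a total set for its library. Reads in listed genes numbered 34883821 to 43444905 per library. The total behind the deposited FPKM was another number. It was above the listed reads in every WT library (WT caudal replicate 1: 36866693 against 35727213). In every Ednrb-/- caudal library it was below them (replicate 2: 35337781 against 37251226). How that total was set was not tested. In 3 libraries (WT caudal replicate 2, Ednrb-/- trunk replicate 3 and Ednrb-/- caudal replicate 3) Xist and the Y-linked gene Ddx3y both reached 5 FPKM or more, and results are also given without these 3 libraries where a call depended on them. Xist was 135 to 156 FPKM, with Ddx3y at 0.977 FPKM or less, in WT trunk replicates 1 and 4, WT caudal replicate 1 and Ednrb-/- trunk replicate 2. No Ednrb-/- caudal library was of this kind, so the sexes were not balanced between groups. The part of sex in the values below was not tested. Markers of tissues rich in mitochondria differed between groups. The summed level of 8 skeletal muscle markers was 334 to 422 FPKM in WT trunk, 195 to 206 in WT caudal, 244 to 259 in Ednrb-/- trunk and 83.9 to 111 in Ednrb-/- caudal libraries. Of these 8 muscle markers, 6 were lower in Ednrb-/- than in WT in each region, and 1, Myf5, was higher in the trunk. The 8 heart markers summed to 26.2 to 31.2, 15.4 to 18.3, 19.95 to 22.6 and 6.26 to 10.1 FPKM in the same order of groups, with 3 of 6 tested lower and 1 higher in Ednrb-/- caudal and 2 lower and 1 higher in Ednrb-/- trunk. Actn2 was a large part of these sums, at means of 17.5, 8.87, 10.1 and 2.40 FPKM in that order. In WT and Ednrb-/- trunk libraries Myh6 was 0.764 and 0.499 FPKM, and Myl7, the 1 called higher, 0.946 and 1.90 FPKM. The 12 erythroid markers summed to 4834 to 6409, 5424 to 6574, 3703 to 4209 and 3764 to 6122 FPKM, with 6 lower and 1 higher in Ednrb-/- caudal and 7 lower and 1 higher in Ednrb-/- trunk. These sums hide opposite differences between globin genes. In the caudal region Hbb-bs was 39.5 FPKM in WT and 4.13 FPKM in Ednrb-/-, and Hbb-bh1, the 1 higher gene, 625 and 1116 FPKM. The 8 liver markers summed to at most 3.12 FPKM in any library. The 12 posterior Hox genes summed to 253 to 330 FPKM in caudal and 10.9 to 52.2 FPKM in trunk libraries, which follows the region labels. No marker of these lists was at 0 in all 16 libraries. The part of these tissues, or of their maturity, in the values below was not tested.

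Several mitochondrial genes have near-identical nuclear copies, and the sequences show which genes have an annotated copy. The 37 genes have the same start and end in the deposited table (build mm39) as in RefSeq GRCm38.p6, and the sequences below are those of GENCODE M21 transcripts with the same gene identifiers and lengths, 5′ to 3′. A stretch of 4663 bases on the minus strand of chromosome 1 (mm39, chr1:24650616-24655278) carries 7 pseudogenes in the order of the mitochondrial genome. Gm28661 repeats 681 of the 684 bases of mt-Co2, Gm10925 repeats 678 of the 681 bases of mt-Atp6, Gm28437 repeats 783 of the 784 bases of mt-Co3 and Gm10222 repeats 294 of the 297 bases of mt-Nd4l, each with 0 mismatches. Gm28439 repeats bases 1 to 876 of mt-Nd4, 63.6% of that gene, with 0 mismatches, and Gm29216 repeats bases 1054 to 1545 of mt-Co1 with 6 mismatches. Gm28438 differs from mt-Nd3 at 1 of 345 bases, the substitution T3C counted from 1 at the 5′ end. That pair is shown first, with the differing base in capitals, because mt-Nd3 is called in both genotype comparisons below. For contrast, the start of mt-Cytb is set beside its best match among transcripts of other genes, Gm11410, which differs at 81 of 1142 aligned bases. In bases 2 to 61 the differences are G14A, C24T and C61T, in capitals.
mt-Nd3 1 to 60: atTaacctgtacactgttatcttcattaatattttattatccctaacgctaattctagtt
Gm28438 1 to 60: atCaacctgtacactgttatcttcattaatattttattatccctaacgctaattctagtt
mt-Cytb 2 to 61: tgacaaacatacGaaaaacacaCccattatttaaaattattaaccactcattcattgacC
Gm11410 2 to 61: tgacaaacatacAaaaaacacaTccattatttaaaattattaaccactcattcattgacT

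Each mitochondrial gene was searched for windows of 50 bases that also occur in the 141730 GENCODE M21 transcripts of other genes. Nuclear sequence outside these transcripts was not searched, so copies without an annotated transcript could not be found. The share of windows found elsewhere was 100% for mt-Co2, 99.9% for mt-Co3, 99.5% for mt-Atp6, 98.8% for mt-Nd4l and 98.0% for mt-Nd3. It was 62.2% for mt-Nd4, 51.1% for mt-Co1, 8.19% for mt-Nd2, 7.61% for mt-Nd5 and 1.04% for mt-Rnr2. It was 0 for mt-Nd1, mt-Nd6, mt-Cytb, mt-Atp8, mt-Rnr1 and mt-Tp. The 5 protein genes with 98.0% or more of their windows elsewhere had mean levels of 26.9 (mt-Nd4l) to 96.1 FPKM (mt-Co2). Of the other 8 protein genes, 7 had mean levels of 620.5 FPKM (mt-Nd6) or more, and mt-Atp8 had 19.4 FPKM. The copies on chromosome 1 were themselves listed with reads, from a mean of 21.3 FPKM for Gm28438 to 122.5 FPKM for Gm10925, and Gm10925 was above mt-Atp6 (51.7 FPKM) and Gm28661 (111.9 FPKM) above mt-Co2. The 7 copies took 1.37% to 2.04% of the summed reads of the mitochondrial genes and the copies. None of the 7 copies was called in either genotype comparison (lowest limma adjusted p = 0.088, for Gm10222). No source used here says how reads that match several places were counted. Reads from stretches that these 7 mitochondrial genes share with their copies therefore cannot be told apart. Outside these copies lie 1053 bases of mt-Co1 and 502 bases of mt-Nd4. The best match of mt-Co1 among transcripts of other genes was Gm13340, which spans its 1545 bases with 37 mismatches.

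**Figure D1:**
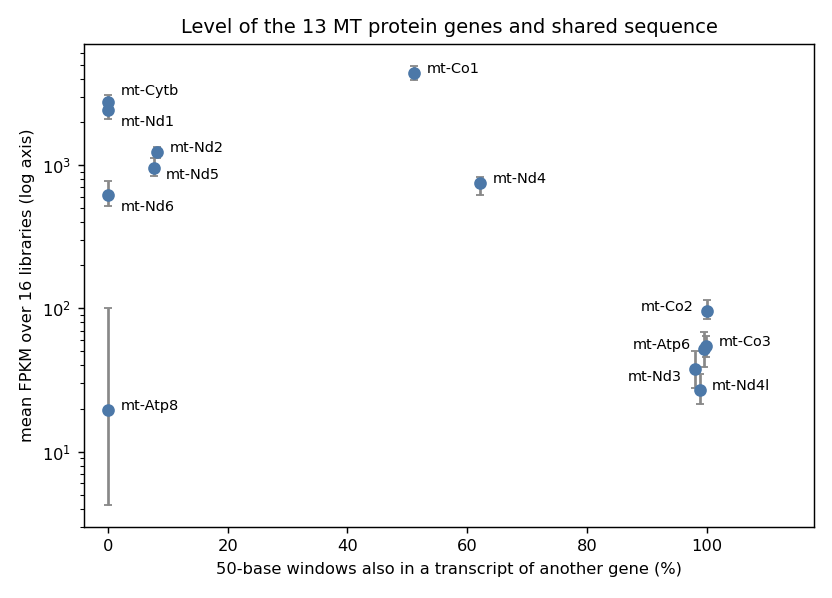
Mean FPKM of the 13 mitochondrial protein genes over 16 libraries (log axis; bars run from the lowest to the highest library) against the percentage of 50-base windows that also occur in a transcript of another gene. The 5 genes at 98.0% or more lie between 26.9 and 96.1 FPKM, and mt-Atp8, at 0%, lies at 19.4 FPKM.

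Reads were spread very unevenly over the mitochondrial genome. mt-Co1, the catalytic subunit of complex IV, had the highest mean FPKM of all 56748 genes (4373) and took 39.5% of mitochondrial reads. mt-Cytb, the mitochondrially encoded subunit of complex III, ranked 4 (2755 FPKM, 18.4% of mitochondrial reads). The complex I subunits mt-Nd1, mt-Nd2, mt-Nd5, mt-Nd4 and mt-Nd6 ranked 5, 7, 11, 20 and 25, and the first 4 of them took 13.7%, 7.47%, 10.2% and 6.04% of mitochondrial reads. Together the 6 genes with most reads held 95.3% of mitochondrial reads. The ribosomal RNAs mt-Rnr1 (12S) and mt-Rnr2 (16S) ranked 231 and 315, at means of 137.2 and 106.4 FPKM, and held 1.76% of mitochondrial reads. No source used here says whether the libraries were made from poly(A) RNA or after removal of ribosomal RNA. The 2 ATP synthase genes held 0.23%. As deposited, these per-length levels put mt-Co1 above every other mitochondrial gene in each of the 16 libraries. The lowest mt-Co1 value was 3889 FPKM against a highest mt-Cytb value of 3085 FPKM. How reads that match several places were counted is not given. The levels and shares of mt-Co2, mt-Co3, mt-Atp6, mt-Nd4l and mt-Nd3 may therefore not be comparable with those of the other genes.

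**Figure D2:**
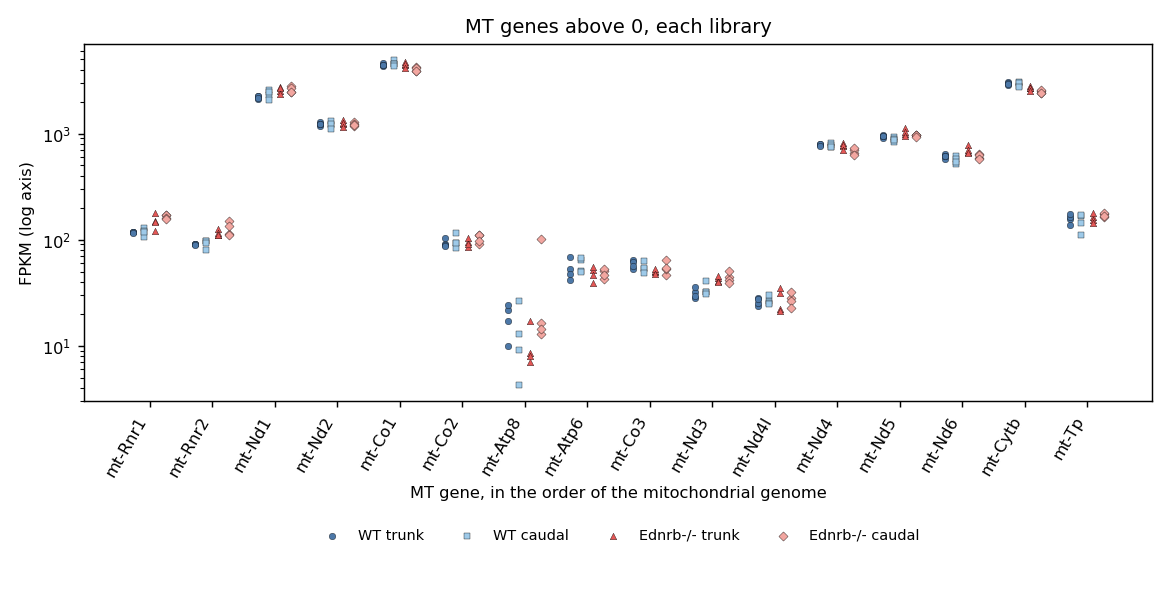
FPKM (log axis) of the 16 mitochondrial genes with reads, in genome order, for each of 16 libraries in 4 groups. The 7 protein genes mt-Co1, mt-Cytb, mt-Nd1, mt-Nd2, mt-Nd5, mt-Nd4 and mt-Nd6 (lowest library 514.3 FPKM) stand above the rest, and mt-Atp8 has 1 Ednrb-/- caudal library at 100.6 FPKM.

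Of the 22 transfer RNA genes, 21 had 0 reads in every library. A count of 0 allows up to 3 reads, which for the median transfer RNA length of 69 bases is 0.981 to 1.25 FPKM per library. Of these 21 genes, 20 have a listed gene within 35 bases on both sides. The exception among the 22 was mt-Tp, the proline transfer RNA gene at 15356 to 15422 on the minus strand and the last listed gene of the genome, with 275 to 489 reads per library and a mean of 159.1 FPKM. Its sequence is shown because it is the only transfer RNA gene with values.
mt-Tp 1 to 67: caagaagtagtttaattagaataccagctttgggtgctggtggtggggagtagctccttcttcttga
No source used here gives the strand setting of the counting, so reads of mt-Tp and reads of the opposite strand there cannot be told apart. mt-Tp was 157.3 ± 14.6 FPKM in WT trunk, 148.7 ± 27.4 in WT caudal, 160.4 ± 14.6 in Ednrb-/- trunk and 170.0 ± 6.73 in Ednrb-/- caudal libraries (SD, n = 4 each). The groups overlapped, and mt-Tp was called in no comparison.

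Filtering and testing covered the whole table. A gene was tested where at least 4 libraries reached 0.5 FPKM, which 17205 genes did, and 16 of the 37 mitochondrial genes were among them: the 13 protein genes, both ribosomal RNA genes and mt-Tp. Differences are on the scale log2(FPKM + 0.5), ± SE, and a gene is called where the limma adjusted p, Benjamini-Hochberg over the 17205 genes, is under 0.05. Without Ednrb in the caudal region, 6 of the 16 tested mitochondrial genes were called (37.5%, against 41.6% of all genes tested), 3 higher and 3 lower. In the trunk region 6 were called (37.5%, against 25.1% of all genes), 5 higher and 1 lower. The medians of the 16 genes were 0.11 and 0.02, those of all genes tested 0.0068 and 0.004. The ranges of the 2 genotypes did not overlap for 5 of the 16 genes in the caudal region (37.3% of all genes tested) and for 7 in the trunk (28.1%). The caudal share lay near its background and the trunk share above it, on few genes, and the trunk count was 3 without any 1 of WT trunk replicate 4, Ednrb-/- trunk replicate 1 or Ednrb-/- trunk replicate 3, and 3 without the libraries that held both Xist and Ddx3y. mt-Rnr1, mt-Rnr2 and mt-Nd3 were called higher in both regions and mt-Cytb lower in both. Both genotype comparisons are within region and share no library. Whether they share embryos is not given, and 1 estimate of the spread over all 16 libraries serves both, so they are not shown to be independent.

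**Figure D3:**
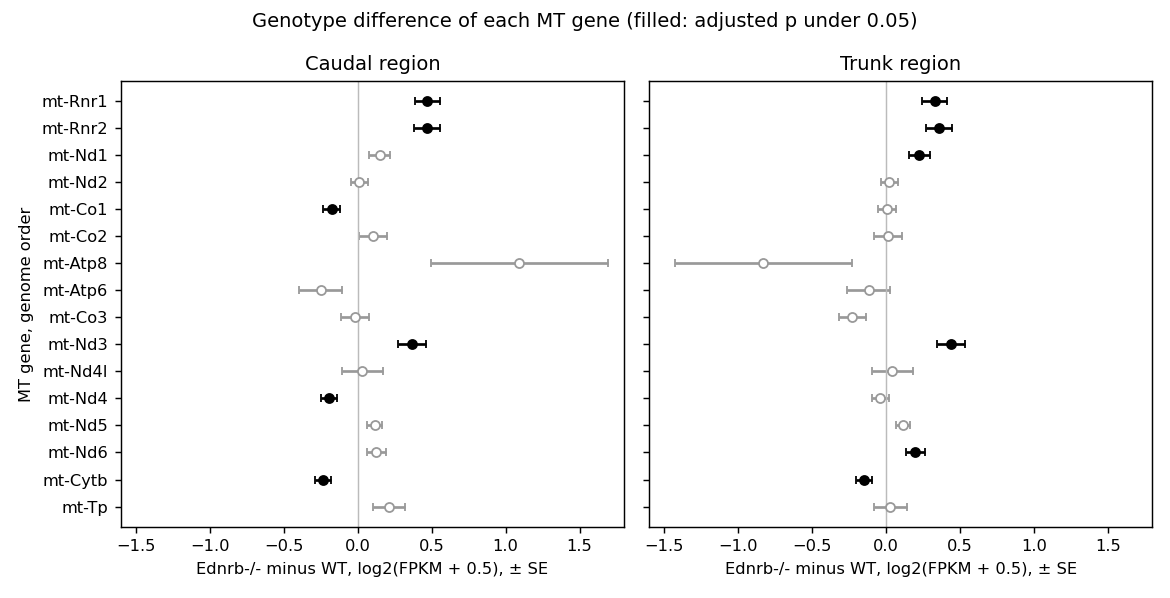
Difference between Ednrb-/- and WT for each of the 16 tested mitochondrial genes, in genome order, as log2(FPKM + 0.5) ± SE, in the caudal (left) and trunk (right) region. Filled points have a limma adjusted p under 0.05: mt-Rnr1, mt-Rnr2 and mt-Nd3 are to the right of 0 in both regions and mt-Cytb to the left, where the trunk value of mt-Cytb and the caudal value of mt-Co1 did not keep their sign under quantile normalization.

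The ribosomal RNA genes were the members with the largest called differences in the caudal region, where both were higher in Ednrb-/- libraries. They held 1.76% of mitochondrial reads. Whether poly(A) RNA was selected or ribosomal RNA removed is not given, so the values are levels in the libraries. mt-Rnr1, the RNA of the small ribosomal subunit (MT, 70 to 1024, plus strand), stood at 129.3, 107.0, 120.2 and 117.2 FPKM in WT caudal replicates 1 to 4 and at 171.0, 170.8, 159.0 and 155.6 FPKM in Ednrb-/- caudal replicates. All 4 Ednrb-/- caudal values were above all 4 WT caudal values (log2 difference 0.47 ± 0.08, 1.39-fold, limma adjusted p = 0.000418). In the trunk mt-Rnr1 was 117.7, 119.3, 117.2 and 115.7 FPKM in WT and 177.2, 150.6, 146.2 and 121.5 FPKM in Ednrb-/- libraries, again without overlap (0.33 ± 0.08, limma adjusted p = 0.0103). The lowest Ednrb-/- trunk library stood close to the WT values, which themselves had a coefficient of variation of 1.26%.

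mt-Rnr2, the RNA of the large ribosomal subunit (MT, 1094 to 2675, plus strand), stood at 97.5, 79.7, 96.3 and 92.7 FPKM in WT caudal and at 113.1, 151.5, 110.4 and 135.6 FPKM in Ednrb-/- caudal libraries. The 4 Ednrb-/- caudal libraries were all higher but spread more widely (log2 difference 0.47 ± 0.09, 1.38-fold, limma adjusted p = 0.000593). In the trunk it rose from 90.2, 91.9, 90.3 and 89.3 to 127.1, 110.2, 115.9 and 111.3 FPKM (0.36 ± 0.09, limma adjusted p = 0.00804). No trunk library of one genotype fell in the range of the other. Between trunk and caudal libraries of 1 genotype neither ribosomal RNA gene was called (lowest limma adjusted p = 0.178). The calls of both genes in both regions held without any 1 library.

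Complex I, which takes electrons from NADH, has 7 mitochondrially encoded subunits, and they did not move together. mt-Nd3 (MT, 9459 to 9806), a small membrane subunit whose sequence is shown above beside its copy, was 32.1, 27.97, 35.8 and 29.6 FPKM in WT trunk and 43.9, 40.8, 45.5 and 39.9 FPKM in Ednrb-/- trunk libraries. It was higher in each Ednrb-/- trunk library than in any WT trunk library (log2 difference 0.44 ± 0.10, limma adjusted p = 0.00393). In the caudal region it was 32.3, 32.1, 40.4 and 30.6 FPKM in WT and 44.3, 41.7, 50.4 and 38.6 FPKM in Ednrb-/-. There the groups overlapped, since WT replicate 3 lay above Ednrb-/- replicate 4, and the gene was called higher (0.37 ± 0.10, limma adjusted p = 0.00599) but not without the libraries that held both Xist and Ddx3y (adjusted p = 0.0539). Its copy Gm28438 had a log2 trunk difference of 0.44 ± 0.21 that missed the threshold (limma adjusted p = 0.142). With the reads of the 7 copies added to their mitochondrial genes, an alternative chosen after the data were seen, mt-Nd3 remained higher (caudal 0.33, limma adjusted p = 0.0264; trunk 0.45, adjusted p = 0.00813).

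mt-Nd1 (MT, 2751 to 3707) shares no 50-base window with a searched transcript of another gene. It was 2248, 2128, 2265 and 2172 FPKM in WT trunk and 2740, 2539, 2663 and 2370 FPKM in Ednrb-/- trunk libraries. All 4 Ednrb-/- trunk libraries were above all 4 WT trunk libraries (log2 difference 0.22 ± 0.07, limma adjusted p = 0.0278). The call was lost without any 1 of WT trunk replicates 2 and 4 and Ednrb-/- trunk replicates 1, 2 and 3, with adjusted p of 0.0737, 0.066, 0.0802, 0.0507 and 0.0697 in that order, and without the libraries that held both Xist and Ddx3y (0.0943). In the caudal region the difference was 0.15 ± 0.07 and missed the threshold (limma adjusted p = 0.102), with WT values of 2083 to 2551 FPKM overlapping Ednrb-/- values of 2441 to 2812. mt-Nd1 was called higher there under quantile normalization (0.32, limma adjusted p = 1.61e-06) and with voom (adjusted p = 0.044).

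mt-Nd4 (MT, 10167 to 11544) fell in the Ednrb-/- caudal region. It was 811.0, 746.0, 788.4 and 745.8 FPKM in WT caudal and 653.8, 702.1, 725.3 and 621.8 FPKM in Ednrb-/- caudal libraries, without overlap (log2 difference -0.20 ± 0.06, limma adjusted p = 0.0112). In the trunk its values overlapped, at 769.7 to 796.6 FPKM in WT and 693.9 to 818.6 FPKM in Ednrb-/-, and the difference was -0.04 ± 0.06 (limma adjusted p = 0.654). The difference of the 2 genotype differences was not called (-0.16 ± 0.08, limma adjusted p = 0.252). The caudal call of mt-Nd4 held without any 1 library.

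mt-Nd6 (MT, 13552 to 14070) is the only protein gene on the minus strand and overlaps mt-Nd5 on the other strand by 14 bases. Its reads cannot be told apart from reads of the opposite strand, since the strand setting is not given. It was 577.6, 640.9, 613.1 and 618.3 FPKM in WT trunk and 776.5, 675.1, 703.3 and 656.9 FPKM in Ednrb-/- trunk libraries, higher in each of the latter (log2 difference 0.20 ± 0.06, limma adjusted p = 0.0327). The trunk call was lost without any 1 of WT trunk replicates 1, 3 and 4 (adjusted p = 0.0873, 0.0607 and 0.0592) or Ednrb-/- trunk replicates 1 and 3 (0.104 and 0.0629), and without the libraries that held both Xist and Ddx3y (0.0637). It was also lost with no filter (limma adjusted p = 0.0919), under TPM scaling (0.0636), with the total of listed reads (0.0771), with that total without mitochondrial genes (0.0799) and under quantile normalization (0.374). In the caudal region it was 514.3 to 614.5 FPKM in WT and 570.8 to 635.4 in Ednrb-/- and was not called (limma adjusted p = 0.128), and the caudal difference was -0.06 under quantile normalization. mt-Nd2, mt-Nd5 and mt-Nd4l were called in neither region, with log2 differences from 0.01 to 0.11 and limma adjusted p of 0.0816 or higher. mt-Nd5 came nearest, with WT caudal values of 837.2 to 936.7 FPKM against 923.8 to 977.6 FPKM in Ednrb-/- caudal libraries. With voom it was called higher there (limma adjusted p = 0.0416). The caudal difference of mt-Nd2 was -0.09 under TPM scaling, and -0.21 and called lower under quantile normalization (limma adjusted p = 0.000676).

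Complex III has a single mitochondrially encoded subunit, cytochrome b, and its RNA was lower without Ednrb. mt-Cytb (MT, 14145 to 15288) was 3085, 2827, 2976 and 2743 FPKM in WT caudal and 2395, 2529, 2558 and 2400 FPKM in Ednrb-/- caudal libraries. No value was shared between the ranges (log2 difference -0.23 ± 0.05, 0.850-fold, limma adjusted p = 0.0023), and the caudal call held without any 1 library. In the trunk it was 3063, 2867, 2979 and 2957 FPKM in WT and 2779, 2717, 2707 and 2501 FPKM in Ednrb-/-. The trunk ranges did not overlap either, but the call was marginal (-0.15 ± 0.05, limma adjusted p = 0.0496), was lost without any 1 of the 8 trunk libraries (adjusted p = 0.053 to 0.15), and the difference was 0.04 under quantile normalization. This gene has no 50-base window in common with another transcript.

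Complex IV, which passes electrons to oxygen, has 3 mitochondrially encoded subunits, and only the catalytic one was called. mt-Co1 (MT, 5328 to 6872) was 4911, 4483, 4553 and 4287 FPKM in WT caudal and 3920, 4199, 4128 and 3889 FPKM in Ednrb-/- caudal libraries. It was lower in each Ednrb-/- caudal library (log2 difference -0.18 ± 0.06, limma adjusted p = 0.0259), but not called without any 1 of WT caudal replicate 1, Ednrb-/- caudal replicate 1 or Ednrb-/- caudal replicate 4 (adjusted p = 0.0837, 0.0558 and 0.0725), or without the libraries that held both Xist and Ddx3y (0.0647). Under quantile normalization its difference was 0, because that step gives the top-ranked gene 1 value in all libraries. In the trunk it was 4350 to 4584 FPKM in WT and 4128 to 4720 FPKM in Ednrb-/-, a difference of 0.01 ± 0.06 (limma adjusted p = 0.962). mt-Co2 and mt-Co3, whose sequences are almost wholly repeated on chromosome 1, were not called in either region. mt-Co3 was 53.0 to 64.4 FPKM in WT trunk and 47.2 to 52.6 FPKM in Ednrb-/- trunk libraries, without overlap (-0.23 ± 0.09, limma adjusted p = 0.0839).

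ATP synthase has 2 mitochondrially encoded subunits, mt-Atp8 and mt-Atp6, whose reading frames overlap. mt-Atp8 is printed because its values behaved differently from those of its neighbours: the capitals mark the 43 bases it shares with mt-Atp6.
mt-Atp8 1 to 204: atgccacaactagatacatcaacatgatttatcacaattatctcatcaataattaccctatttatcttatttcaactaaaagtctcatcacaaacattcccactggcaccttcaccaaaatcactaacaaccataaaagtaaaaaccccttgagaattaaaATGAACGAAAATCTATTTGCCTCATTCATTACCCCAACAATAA
mt-Atp8 (MT, 7766 to 7969) was 21.6, 10.0, 17.1 and 24.4 FPKM in WT trunk, 4.25, 9.12, 26.5 and 12.8 in WT caudal, 7.09, 8.53, 7.94 and 17.3 in Ednrb-/- trunk and 16.5, 12.8, 14.4 and 100.6 in Ednrb-/- caudal libraries. It rested on 32 to 715 reads per library and varied more than any other tested mitochondrial gene, with coefficients of variation of 34.3% to 119% within groups. Its differences of 1.09 ± 0.60 in the caudal and -0.83 ± 0.60 in the trunk region were not called (limma adjusted p = 0.16 and 0.34). The caudal value turned on Ednrb-/- caudal replicate 4, which was not raised for mt-Atp6 (46.4 FPKM) or mt-Co2 (97.3 FPKM). mt-Atp6 (MT, 7927 to 8607) was 39.1 to 68.4 FPKM over the 16 libraries and was called in no comparison. On chromosome 1, where the copies of mt-Co2 and mt-Atp6 lie 233 bases apart against 230 bases in the mitochondrial genome, the table lists no copy of mt-Atp8.

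Between regions the mitochondrial genes differed little. Trunk against caudal in WT gave 0 calls of 16 by limma (18% of all genes tested were called, 9.69% higher and 8.35% lower), with 1 gene at an unadjusted p under 0.05 and no gene without overlap between the groups (21.3% of all genes tested had none). In Ednrb-/- embryos 2 of 16 were called, both higher in the trunk (12.5%, against 36.2% of all genes tested), and the ranges of 1 of the 16 did not overlap (33.8% of all genes tested). mt-Nd6 was 656.9 to 776.5 FPKM in Ednrb-/- trunk and 570.8 to 635.4 FPKM in Ednrb-/- caudal libraries (log2 difference 0.21 ± 0.06, limma adjusted p = 0.0185). mt-Nd4 was 693.9 to 818.6 against 621.8 to 725.3 FPKM, with overlap (0.18 ± 0.06, limma adjusted p = 0.0208). Neither was called without Ednrb-/- trunk replicate 1 (adjusted p = 0.0687 and 0.0742) or without Ednrb-/- caudal replicate 4 (0.0626 and 0.0762), and mt-Nd4 also not without Ednrb-/- trunk replicate 3 (0.056) or Ednrb-/- caudal replicate 1 (0.0506). These comparisons share libraries with the genotype comparisons. The genotype difference was not shown to differ between regions for any mitochondrial gene: 0 of 16 interaction terms were called by limma (6.76% of all genes tested, 2.98% higher and 3.78% lower), and 2 had an unadjusted p under 0.05, mt-Atp8 (adjusted p = 0.184) and mt-Co1 (adjusted p = 0.204).

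As a share of all listed reads (FPKM × gene length, summed), the mitochondrial genes took 1.82%, 1.74%, 1.77% and 1.74% in WT trunk, 1.91%, 1.72%, 1.78% and 1.68% in WT caudal, 1.87%, 1.74%, 1.79% and 1.61% in Ednrb-/- trunk and 1.59%, 1.62%, 1.66% and 1.53% in Ednrb-/- caudal libraries. The 4 Ednrb-/- caudal libraries were the group with the lowest mean. Their mean of 1.60% ± 0.06 (SD, n = 4) lay 0.173 percentage points under the 1.77% ± 0.10 of WT caudal libraries, without overlap. The exact two-sided permutation p was 0.0286, the smallest that 4 against 4 libraries allow, and 0.086 after Benjamini-Hochberg adjustment over 12 share comparisons, which misses 0.05. Ednrb-/- trunk lay 0.154 percentage points above Ednrb-/- caudal libraries, with overlap (exact permutation p = 0.0857, adjusted 0.17). In the trunk the genotypes differed by -0.0143 percentage points (exact permutation p = 0.83), and trunk and caudal WT by -0.0042 (p = 0.943, exact). Set against the total that underlies the authors' FPKM in place of the listed reads, the caudal difference was -0.0926 percentage points (exact permutation p = 0.171). Without the 3 libraries that held both Xist and Ddx3y it was -0.213, at the smallest exact p that 3 against 3 libraries allow, 0.1.

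Within this share the protein genes and the ribosomal RNA genes had differences of opposite sign in the caudal region. Protein genes took 1.75% ± 0.10 of listed reads in WT caudal and 1.56% ± 0.06 in Ednrb-/- caudal libraries (exact permutation p = 0.0286, adjusted 0.086). The ribosomal RNA genes took 0.0233% to 0.0287% in WT caudal and 0.0323% to 0.0382% in Ednrb-/- caudal libraries, and 0.0257% to 0.0268% in WT trunk and 0.0291% to 0.0372% in Ednrb-/- trunk libraries. Both ribosomal RNA comparisons were without overlap (each exact permutation p = 0.0286, adjusted 0.086). None of the share differences passed the adjusted threshold. The comparisons at an exact permutation p of 0.0286 could go no lower with 4 libraries per group. Their miss after adjustment therefore does not show that the shares were alike.

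Ratios between mitochondrial genes do not depend on the library total, and they are given as a description with no test because they were chosen after the values were seen. The ribosomal RNA genes gave 1.51 ± 0.04 reads per 100 protein gene reads in WT trunk, 1.51 ± 0.10 in WT caudal, 1.90 ± 0.09 in Ednrb-/- trunk and 2.24 ± 0.20 in Ednrb-/- caudal libraries (SD, n = 4 each). Each of the 8 Ednrb-/- libraries, from 1.84 up, lay above each of the 8 WT libraries, which reached 1.62. For every 100 mt-Cytb reads there were 61.4 to 63.6 mt-Nd1 reads in WT trunk, 63.5 to 69.5 in WT caudal, 78.2 to 82.5 in Ednrb-/- trunk and 85.1 to 93.0 in Ednrb-/- caudal libraries. The 2 genotypes were apart by this ratio in both regions. Neither gene shares a 50-base window with a GENCODE M21 transcript of another gene, which does not exclude a nuclear copy outside these transcripts. mt-Nd6 gave 1.76 to 2.05 reads per 100 reads of the other 12 protein genes in WT trunk and 2.10 to 2.26 in Ednrb-/- trunk libraries, and 1.63 to 1.78 in WT caudal and 1.97 to 2.04 in Ednrb-/- caudal libraries.

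Over the 120 pairs that 16 genes form, the log2 ratio of a pair was without overlap between genotypes for 45 pairs in the caudal region (37.5%) and 46 in the trunk region (38.3%), and between regions for 5 pairs in WT (4.17%) and 17 pairs in Ednrb-/- (14.2%). In 27 pairs the genotypes did not overlap in either region and the direction was the same in both, and in 23 pairs all 8 Ednrb-/- libraries were on one side of all 8 WT libraries. Pairs share genes and are not independent. Ratios between other genes were not computed, so these counts have no background of their own. For single genes, the genotypes did not overlap for 37.3% of all genes tested in the caudal region and 28.1% in the trunk. mt-Cytb was a member of 8 of the 23 pairs and mt-Nd4 of 6, each time as the gene that was relatively lower in Ednrb-/- libraries. mt-Rnr2 was in 5 of them, and mt-Rnr1, mt-Nd1 and mt-Nd3 were in 4 each, always as the relatively higher gene. mt-Co1 was in 5, as the lower gene in 4 of them, and mt-Nd2 and mt-Nd5 were in 3 each, as the lower gene in 2 and in 1. mt-Co3 was in 2 pairs as the lower gene and mt-Nd6 in 2 as the higher one. mt-Co2, mt-Atp6, mt-Atp8, mt-Nd4l and mt-Tp were in none.

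**Figure D4:**
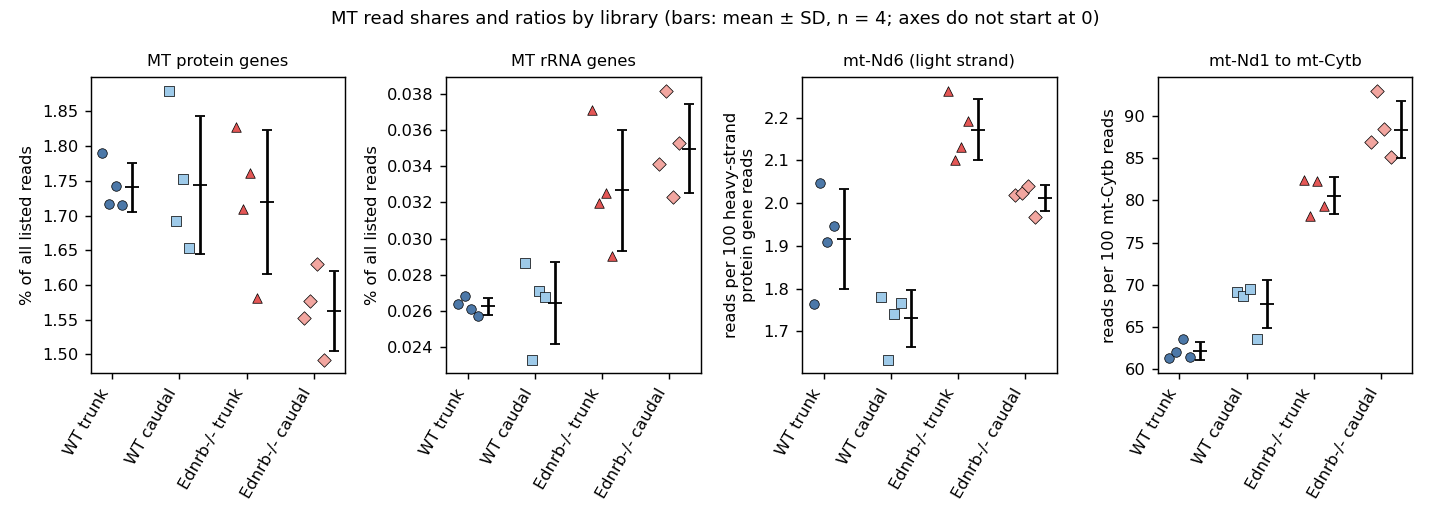
Mitochondrial protein gene reads and ribosomal RNA gene reads as a percentage of all listed reads, mt-Nd6 reads per 100 reads of the other protein genes, and mt-Nd1 reads per 100 mt-Cytb reads, for each library (points) with mean ± SD (bars, n = 4). The axes do not start at 0. All 8 Ednrb-/- libraries lie above all 8 WT libraries for the ribosomal RNA share (from 0.0291% against up to 0.0287%) and for mt-Nd1 per 100 mt-Cytb reads (from 78.2 against up to 69.5).

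Nuclear genes whose products work on mitochondrial RNA were read beside these values. They were taken from lists that were drawn up with earlier results of these data known. As background, 21.7% of all genes tested were called higher and 19.9% lower in the caudal region, and 12.2% higher and 13% lower in the trunk. Of 19 genes for transcription and copy number of mitochondrial DNA, 7 were higher and 0 lower in Ednrb-/- caudal, and 4 higher and 0 lower in Ednrb-/- trunk libraries. Tfam, which packs mitochondrial DNA and starts its transcription, rose from 17.0 ± 0.98 to 21.3 ± 1.23 FPKM in the caudal region (log2 difference 0.31 ± 0.05, limma adjusted p = 0.000296) and was 16.3 and 17.1 FPKM in the trunk (adjusted p = 0.444). Polrmt, the polymerase, and Tfb2m, its initiation factor, were called in neither region (limma adjusted p of 0.248 or higher). Tefm, the elongation factor, was higher in both (0.30, limma adjusted p = 0.00149; 0.20, adjusted p = 0.0338), as were the helicase Twnk (0.36 and 0.18) and the single-strand binding protein Ssbp1 (0.31 and 0.19).

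Of 31 tested genes for mitochondrial RNA processing and stability, 16 were higher and 0 lower in the caudal region and 10 higher and 0 lower in the trunk. Lrpprc, which binds and stabilises mitochondrial messenger RNAs, rose from 13.7 to 16.6 FPKM in caudal (log2 difference 0.27 ± 0.05, limma adjusted p = 0.000514) and from 13.1 to 14.9 FPKM in trunk libraries (0.18 ± 0.05, limma adjusted p = 0.0147), while its partner Slirp did not pass the level filter. Elac2, which cuts the end of transfer RNAs out of precursors, was higher in the caudal region (0.31, limma adjusted p = 0.000296). Fastkd3, of a family of mitochondrial RNA-binding proteins, was higher in both regions (0.28 and 0.23), and its relatives Fastkd2 and Fastkd1 were among the trunk calls (0.21 and 0.27).

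The proteins that join the 2 ribosomal RNAs in the mitochondrial ribosome were mostly called higher in the caudal region. The difference between regions was not tested for the lists. Of 48 tested genes of the large subunit 38 were higher in the caudal and 5 in the trunk region, and of 31 of the small subunit 23 and 2, with 0 lower in each. Mrpl16 rose from 6.83 to 9.55 FPKM (log2 difference 0.46 ± 0.05, limma adjusted p = 8.96e-06) and Mrps21 from 43.9 to 56.7 FPKM (0.37 ± 0.07, limma adjusted p = 0.000624) in the caudal region. Of 17 tested mitochondrial aminoacyl-tRNA synthetases, which load the transfer RNAs, 12 were higher and 1 lower in the caudal and 4 higher and 0 lower in the trunk region. Lars2, the leucine enzyme, rose from 5.99 to 10.4 FPKM in caudal and from 6.19 to 8.77 FPKM in trunk libraries (0.75 and 0.47, limma adjusted p = 7.29e-05 and 0.00521). Of 12 translation factors 4 and 1 were higher, Gfm1 in both regions.

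With the FPKM as deposited, the nuclear partners of the mitochondrially encoded subunits were called mostly higher in the caudal region. Of the mitochondrially encoded subunits, mt-Co1, mt-Cytb and mt-Nd4 were called lower there and mt-Nd3 higher. In the caudal region 30 of 36 nuclear complex I genes, 8 of 9 of complex III, 9 of 12 of complex IV and 14 of 15 of ATP synthase were higher, and 0 of any of these lists lower. In the trunk 0 and 2 of complex I (Ndufs8 and Ndufb10) were higher and lower, 1 of complex III (Uqcrfs1) was higher, and 0 of complex IV and ATP synthase were called. In the caudal region Uqcr10 of complex III rose from 58.8 to 75.9 FPKM (log2 difference 0.37 ± 0.06, limma adjusted p = 0.000308), Cox7c of complex IV from 113.4 to 146.0 FPKM (0.36 ± 0.05, limma adjusted p = 5.2e-05) and Atp5k of ATP synthase from 25.0 to 42.3 FPKM (0.75 ± 0.08, limma adjusted p = 8.71e-06). Complex II, which has no mitochondrially encoded subunit, had 3 of 4 genes higher in the caudal and 0 in the trunk region. Of 17 genes for mitochondrial chaperones, import and membranes, 17 were higher in the caudal and 9 in the trunk region, led by the chaperonin pair Hspe1 (90.8 to 144.0 FPKM) and Hspd1 (214.4 to 334.9 FPKM) in the caudal region. Of 10 regulators of mitochondrial biogenesis 5 and 4 were higher, among them Myc (8.60 to 16.1 FPKM, caudal) and Pprc1 in both.

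These list counts depend on the scaling, tried after the data were seen. After rescaling to TPM the caudal counts of higher genes were 27 of 48 for the large and 13 of 31 for the small ribosomal subunit, 15 of 36 for complex I, 4 of 9 for complex III, 8 of 12 for complex IV and 7 of 15 for ATP synthase. Complex I then also had 1 lower gene. The same scaling gave 7 higher and 2 lower of 17 aminoacyl-tRNA synthetases, 2 of 12 translation factors and 3 of 10 biogenesis regulators as higher. RNA processing genes gave 11 higher and 1 lower of 31, and the genes for transcription and copy number 6 higher and 1 lower of 19. Under quantile normalization complex III had 2 and complex IV 3 higher genes, with 2 lower for complex IV. In the trunk, 2 to 5 complex I genes, 0 to 3 of complex IV and 0 to 2 of ATP synthase were lower under the other scalings. Of the 31 RNA processing genes, 8 to 11 were higher and 0 to 2 lower in the trunk under these scalings. The large ribosomal subunit then had 1 to 5 higher and 0 to 1 lower genes in the trunk and the small subunit 0 to 4 higher, and the trunk counts of higher genes were 2 to 5 for transcription and copy number and 2 to 6 for the synthetases. Without the 3 libraries that held both Xist and Ddx3y, the trunk counts of higher genes were 2 of 48 for the large and 1 of 31 for the small ribosomal subunit, and the caudal counts were 35 and 23. The caudal medians of these lists stayed above 0 under each of the 5 other scalings, and the caudal median of all genes was -0.08 under TPM against 0.0068 as deposited.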

How the data were processed

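Total RNA of the trunk or caudal region was extracted with TRIzol and sequenced, per the labels' protocols. The submitters' processing notes name fastp, HISAT2 (2.0.5), featureCounts (1.5.0-p3) and the build mm39. The deposited values are FPKM, with coordinates and gene lengths, per the file headers. No source used here gives the strand setting, the counting of reads that match several places or the annotation release.

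FPKM × length divided by 1 step per library gave whole reads for 100% of values (tolerance 0.01), which served for depth and shares. The groups come from the titles. All 16 libraries entered 1 limma fit (version 3.58.1, R 4.3.3; trend, 4 group means) on log2(FPKM + 0.5), tested on simulated data. Shares were compared by two-sided exact permutation over 70 assignments. Copies were searched with blastn 2.17.0+ and 50-base windows. Floors of 3 reads cover counting error only.

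The members and lists were chosen with earlier results of these data known. All mitochondrial rows may be named, and of each nuclear list at most the 3 smallest adjusted p per genotype comparison, plus Tfam, Polrmt, Tfb2m, Tefm, Lrpprc, Slirp and Ednrb. Alternatives covered pseudocount, filter, scaling, replicate block, weights, voom on whole reads and left-out libraries. Those that added the chromosome 1 copies, and list counts under other scalings, were chosen after seeing the data.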

Additional observations from a re-analysis of the deposited data

Results flagged for a closer look

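Of 88 groups of 4 libraries examined, 4 held a library whose distance from the nearest other exceeded Dixon's critical share of the group's range, which chance exceeds in about 1 of 20 groups. mt-Atp8 was 100.6 FPKM in Ednrb-/- caudal replicate 4 against 12.8 to 16.5 FPKM in the other 3 libraries of the group. mt-Atp8 was also high in Ednrb-/- trunk replicate 4, at 17.25 FPKM against 7.09 to 8.53. The ribosomal RNA genes gave 2.034 reads per 100 protein gene reads in Ednrb-/- trunk replicate 1 against 1.84 to 1.87 in the others. mt-Nd1 gave 63.53 reads per 100 mt-Cytb reads in WT caudal replicate 4 against 68.7 to 69.5, which placed that library within the range of the WT trunk libraries.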

How the results depend on the processing

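The count of 6 called genes in the caudal genotype comparison stayed within 1.5 times under all 23 alternatives (5 to 7 with 1 library left out), but the genes called changed. Quantile normalization added mt-Nd1 as higher (0.32, limma adjusted p = 1.61e-06) and mt-Nd2 as lower (-0.21, adjusted p = 0.000676), while mt-Co1 and mt-Nd3 were lost. With voom, mt-Nd1 (limma adjusted p = 0.044) and mt-Nd5 (0.0416) were added as higher. In the trunk genotype comparison the count of 6 became 3 with no filter, 3 under quantile normalization, 3 without the libraries that held both Xist and Ddx3y, and 3 to 5 with 1 library left out. For trunk against caudal in WT the count of 0 became 1 under quantile normalization, and for the interaction 1 under TPM scaling and 2 under quantile normalization. For trunk against caudal in Ednrb-/- the count of 2 became 0 with no filter, 1 with only the groups compared, 4 with the total of listed reads, 4 with that total without mitochondrial genes, 4 with voom, 5 under TPM scaling, 5 under quantile normalization, 5 with array weights, and 0 to 4 with 1 library left out. The caudal genotype difference in share (-0.173) was -0.0926 with the total behind the FPKM and -0.213 without the libraries that held both Xist and Ddx3y, and lay between -0.203 and -0.127 with 1 library left out (exact p 0.0286 to 0.0571). The share difference of Ednrb-/- trunk and caudal (0.154, exact p = 0.0857) lay between 0.117 and 0.202 with 1 library left out, with exact p from 0.0286 (without Ednrb-/- trunk replicate 4) to 0.143. Under quantile normalization mt-Co1 in the caudal region was 0 and mt-Cytb in the trunk 0.0359. The calls of mt-Nd4, mt-Rnr1 and mt-Rnr2 in the caudal region and of mt-Rnr2 and mt-Nd3 in the trunk held under all 23 alternatives. With no filter the calls of mt-Co1 (limma adjusted p = 0.339) and mt-Cytb (0.0722) in the caudal region, of mt-Cytb (0.344), mt-Nd1 (0.163) and mt-Nd6 (0.0919) in the trunk, and of mt-Nd4 (0.0742) and mt-Nd6 (0.0574) between regions in Ednrb-/- were lost. Under quantile normalization mt-Nd3 in the caudal region (0.0646) and mt-Rnr1 (0.0521) and mt-Nd6 (0.374) in the trunk were lost. With only the groups compared, mt-Co1 in the caudal region (0.145), mt-Cytb in the trunk (0.0628) and mt-Nd4 between regions (0.0752) were lost. In the trunk, mt-Cytb was lost with median-of-ratios scaling (0.0501), mt-Nd1 with the total of listed reads without mitochondrial genes (0.0501), and mt-Nd6 with that total (0.0799), with all listed reads (0.0771) and under TPM scaling (0.0636). Without the libraries that held both Xist and Ddx3y, mt-Cytb in the trunk was also lost (0.101). The causes of these changes were not tested.

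Replicate numbers gave little sign of a pairing: the correlations of same-numbered libraries' deviations were -0.084 to 0.11, over 0.1 in 1 of 16 pairs. Such correlations cannot exclude a shared embryo or litter. Xist was 148 and 0.819 FPKM in WT trunk and caudal replicate 4, and 135 and 0.251 FPKM in Ednrb-/- trunk and caudal replicate 2. These same-numbered samples were therefore not of 1 embryo. In the other replicates trunk and caudal were both high in Ddx3y or both high in Xist. With the replicate block the trunk call of mt-Cytb was lost (limma adjusted p = 0.056), no other call of a mitochondrial gene was lost, and the caudal share difference of -0.173 had a sign-flip p of 0.125, the smallest that 4 pairs allow (exact). The lowest read counts were those of mt-Atp8, at 32 to 715 reads per library, and a count of 0, as for 21 transfer RNA genes, allows up to 3 reads.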

Other observations

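Outside the mitochondrial genome, the 10 genes with a mean of at least 5 FPKM that followed the summed level of the 13 mitochondrial protein genes most closely over the 16 libraries were Csnk1g3, Sh3bgrl, Scoc, Vma21, Bclaf3, Cfl2, Cnot7, Zfp638, Tmed7 and Tmem33. Pearson's r on the log2 scale ran from 0.884 for Csnk1g3 to 0.83 for Tmem33, the highest of 8331 genes ranked. The 16 values share library totals and the 4 groups, and r is given as a description.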
